A study of Mus musculus with 6 samples.

Results

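Glycolysis splits glucose into pyruvate in the cytosol, with hexokinase, phosphofructokinase and pyruvate kinase as its irreversible steps. Lactate dehydrogenase turns pyruvate into lactate, which leaves the cell through monocarboxylate carriers, and the pentose phosphate pathway branches off at glucose-6-phosphate to make NADPH and ribose phosphate. Pluripotent cells are known for a high glycolytic flux, and many of these genes are textbook targets of MYC, which binds the E-box CACGTG as a dimer with MAX, and of the hypoxia factors HIF1A and EPAS1.

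The genes described here are 34 named genes of glucose uptake, glycolysis, lactate handling and the pentose phosphate pathway, out of 56689 identifiers listed in each library and 14661 genes tested. They were chosen by pathway, and all 34 had a mean of at least 1 FPKM (fragments per transcript length and library size) in both groups, so the filter on low values fixed no member's direction. RNA came from mouse embryonic stem cells of strain C57BL/6. There were 3 wild type libraries (WT) and 3 libraries of the Max-/- genotype, labelled Max-KO, and no treatment is named for either. How Max was removed, how many clones were used and whether cultures were independent is not stated in the labels. The p-values therefore speak of the spread among these 6 libraries, which may be technical.

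Summed FPKM was 743406 to 774406 in WT and 645169 to 658360 in Max-KO, and low values left a trace of an estimated 20.8 to 28.3 M fragments per library. A gene of 2 kb at 1 FPKM would then rest on 41.7 to 56.6 fragments. Embryonic stem cell markers were high in all libraries (8 markers summing to 4734 to 5372 FPKM in WT and 6604 to 7107 FPKM in Max-KO). Dppa5a held the largest part of these sums (means of 2510 and 4020 FPKM). Of the 8 markers 5 were higher, 2 not called and 1 lower, Utf1 (means of 265 and 149 FPKM). Germ cell markers rose in 7 of 7 cases, from a sum of 33.9 to 39.4 FPKM to 934 to 974 FPKM, and 5 of 5 tested neural markers fell (sum 132 to 152 FPKM to 69.5 to 72.7 FPKM). Among all genes tested 43.0% were called higher and 23.2% lower. The germ cell marker Tdrd9, at 0.01 to 0.09 FPKM in WT, passed the filter on low values only through Max-KO, so it could only rise. The summed levels of 8 feeder fibroblast markers were 7.99 to 8.40 FPKM in WT and 9.05 to 11.4 FPKM in Max-KO, and those of 7 primitive endoderm markers 1.97 to 2.42 and 5.71 to 10.2 FPKM. Trophoblast markers summed to 66.2 to 73.2 FPKM in WT and 74.4 to 77.5 FPKM in Max-KO, mostly through Krt8 and Tfap2c. Muscle markers summed to 8.61 to 21.9 and 9.63 to 15.6 FPKM, the highest WT sum holding Actn2 at 16.3 FPKM in WT replicate 1. Of 8 muscle markers 3 were higher, 1 lower and 1 not called, and Myod1, Myog and Ckm were untested at or under 0.07 FPKM. Tnni1 and Tnnt3, counted as higher, were under 1 FPKM in WT and passed the filter only through Max-KO. Blood and endothelial markers summed to 40.8 to 45.8 and 70.6 to 79.3 FPKM, mostly through Pecam1 (means of 40.2 and 70.9 FPKM). No marker was at 0 in all libraries. The part of these cells in the results was not tested, and in bulk RNA fewer cells of a type and less RNA per cell cannot be told apart. Max itself was at 41.6, 50.2 and 42.3 FPKM in WT and at 35.8, 39.6 and 43.4 FPKM in Max-KO, with overlapping groups. A gene-level value does not show a missing exon, so it does not check the labels.

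Promoter sequences are shown first for the members that hold the E-box near a start site, because the study removed the partner through which MYC binds it. RefSeq promoter windows (GRCm38.p6, 250 bases before to 50 after each start) were found for 33 of the 34 genes, 52 windows in all, and Slc2a3 was not matched. The E-box, which reads the same on both strands, was in at least 1 window of 5 of the 33 genes (15.2%). It was in 11.8% of the 10394 tested genes that had a window, in 13.6% of those called lower and in 10.9% of those called higher. The share among the members rests on 5 genes and lies near these backgrounds. The members had 52 windows for 33 genes, against 32851 windows for 27025 genes over all genes with a window. More windows make a match in any of them likelier, and the shares were not adjusted for this. The stretches below run 5′ to 3′ on the strand of the gene, end before the start site, cross no annotated exon, and have the E-box in capitals.
Ldha, chr7:46845634-46845803 (+): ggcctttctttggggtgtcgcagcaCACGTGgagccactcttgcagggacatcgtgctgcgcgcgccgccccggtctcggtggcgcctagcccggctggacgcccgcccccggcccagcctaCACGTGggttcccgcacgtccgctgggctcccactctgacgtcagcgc
Slc16a1, chr3:104638437-104638496 (+): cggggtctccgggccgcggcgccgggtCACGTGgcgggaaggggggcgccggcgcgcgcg
Pfkfb3, chr2:11502111-11502170 (-): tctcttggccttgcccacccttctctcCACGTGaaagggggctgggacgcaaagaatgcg
Pfkm, chr15:98092426-98092485 (+): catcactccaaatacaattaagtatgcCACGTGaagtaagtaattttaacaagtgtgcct
Pfkfb2, chr1:130715822-130715881 (-): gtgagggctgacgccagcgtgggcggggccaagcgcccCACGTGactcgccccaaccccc

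Ldha was the member with a pair of E-boxes, whose first bases lay 145 and 48 bases before the start. The matches of Slc16a1, Pfkm, Pfkfb3 and Pfkfb2 began 200, 136, 53 and 22 bases before a start. Those of Slc16a1 and Pfkm lie before the annotated gene, while those of Ldha, Pfkfb3 and Pfkfb2 lie within an intron of a longer GENCODE transcript. Of these 5 genes Ldha, Slc16a1, Pfkfb3 and Pfkm were lower and Pfkfb2 was higher in Max-KO, as given below. Of all 33 members with a window 25 were lower, 3 higher and 5 not called, and 23.2% of all genes tested were lower. A link between the E-box and these changes was not tested. The shorter motifs ACGTG and GCGTG, the core letters of a hypoxia response element, were counted on both strands and overlap the E-box, which contains ACGTG. They were in the windows of 29 of the 33 genes (87.9%), against 67.4% of tested genes, 73.2% of those called lower and 63.6% of those called higher. These shares too count a match in any window and were not adjusted for the larger number of windows per member. Hk2, which rose, held CACGT, the reverse complement of ACGTG, in the 100 bases before its start, shown in capitals, and no E-box in its window.
Hk2, chr6:82774455-82774554 (-): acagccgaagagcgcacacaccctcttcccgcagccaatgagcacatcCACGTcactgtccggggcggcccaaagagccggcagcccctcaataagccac

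Most of the pathway was lower in the libraries labelled Max-KO, with exceptions at several steps. Of the 34 members 25 fell and 3 rose, Hk2, Pfkfb2 and Eno2, and 6 were not called (limma, Benjamini-Hochberg adjusted p under 0.05 over all genes). Among all genes tested 23.2% were called lower, 43.0% higher and 33.8% not called. A fall of 1 or more on the log2 scale was seen in 16 members, against 4.86% of all genes. The median log2 difference of the members was −0.89 and that of all genes 0.21, so the members' median lay 1.10 below that of all genes. Log2 differences here subtract the WT mean of log2(FPKM + 1) from that of Max-KO, and the added 1 makes changes of low genes look smaller than they are. The groups did not overlap for 31 members, 26 lower and 5 higher, against 25.7% of all genes lower and 46.3% higher without overlap. These counts are a description, since the members were proposed with earlier results of these data known.

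The shift of all genes moved with the scaling of the libraries. It was 0.41 after rescaling to TPM (every library brought to the same sum), −0.01 with median-ratio scaling and −0.02 under quantile normalization, where the members' medians were −0.69, −1.14 and −0.80. The share of calls that were higher over all genes was 64.9%, against 76.9%, 47.5% and 46.7% under these scalings. Each of the 25 members that fell kept its direction under all of them.

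Together the 34 genes summed to 14423, 14385 and 16682 FPKM in WT 1 to 3 and to 5963, 6154 and 6595 FPKM in Max-KO 1 to 3. All Max-KO libraries lay below all WT libraries. As a share of the summed FPKM of the library this was 2.004% ± 0.130 in WT and 0.957% ± 0.0401 in Max-KO (n = 3, SD). The members' sum differed by 8926 FPKM between the groups, which is 8.56% of the net difference of 104311 FPKM in summed FPKM. Falls and rises of genes cancel in that net figure, so the percentage is not the members' part of all falls. WT replicate 3 stood highest of its group in 25 of 34 members, at a median of 1.12 times the mean of the other WT libraries. Leaving it out kept the count of lower members at 25.

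**Figure D1:**
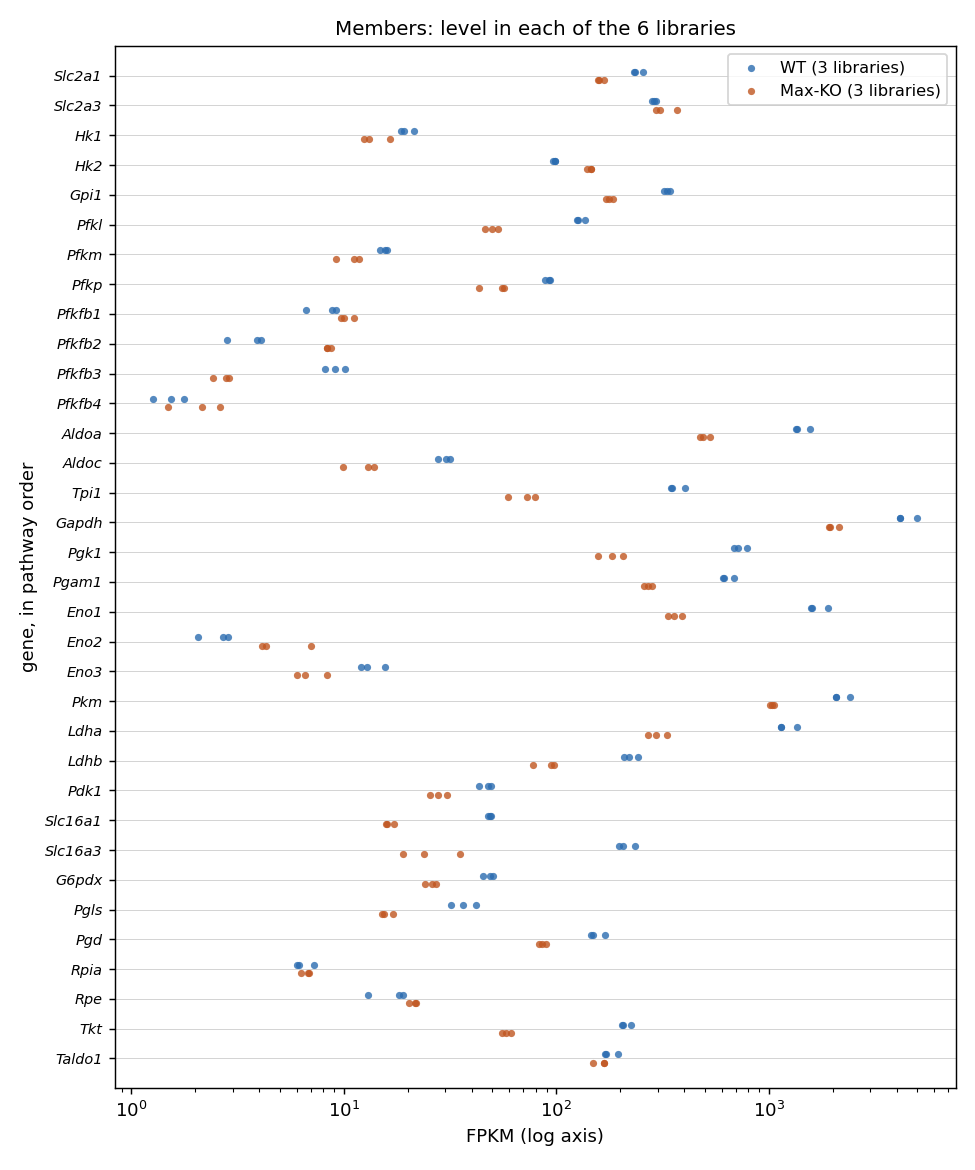
FPKM of each of the 34 genes (log axis, pathway order from top) in the 3 WT and 3 Max-KO libraries, 1 point per library. The groups are apart for 31 genes and overlap for Slc2a3, Pfkfb4 and Rpia.

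At the cell surface the transporters differed from each other. Slc2a1, which encodes the basal glucose transporter GLUT1, was at 236, 233 and 257 FPKM in WT 1 to 3 and at 160, 158 and 169 FPKM in Max-KO 1 to 3. The groups did not overlap, and the log2 difference was −0.57 ± 0.06 (SE; limma adjusted p = 1.57e-04). Slc2a3, which encodes the high-affinity transporter GLUT3, was at 284, 296 and 287 FPKM in WT and at 309, 294 and 371 FPKM in Max-KO, with overlapping groups. At 0.16 (95% interval −0.05 to 0.37) its log2 difference was not called (limma adjusted p = 0.147). With median-ratio scaling it turned to −0.09, while TPM (0.37, limma adjusted p = 0.0057) and quantile normalization (0.44, limma adjusted p = 0.00208) brought it past the threshold.

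The summed level of the pair was 531 ± 12.7 FPKM in WT and 487 ± 46.4 FPKM in Max-KO (SD, n = 3), and the groups overlapped. Within that sum the share of Slc2a3 was 54.4% ± 1.59 in WT and 66.6% ± 1.92 in Max-KO, without overlap. A share is taken within a library, so scaling all values of a library by 1 factor does not change it.

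Hexokinase, which traps glucose as glucose-6-phosphate, was the step whose sum was higher in all Max-KO libraries than in any WT library. Hk2, the inducible isozyme (ENSMUSG00000000628, chromosome 6, 82725025 to 82774454, minus strand), was at 99.0, 96.2 and 99.2 FPKM in WT and at 139, 145 and 146 FPKM in Max-KO. All Max-KO libraries were above all WT libraries, and the log2 difference was 0.54 ± 0.05 (SE; limma adjusted p = 7.58e-05). Hk1, the isozyme of most adult tissues, was at 19.2, 18.6 and 21.5 FPKM in WT and at 12.5, 13.2 and 16.4 FPKM in Max-KO, a fall of −0.47 ± 0.11 (limma adjusted p = 0.00852). That call was lost after rescaling to TPM (−0.28, limma adjusted p = 0.0551). The sum of the pair was 118 ± 2.96 FPKM in WT and 158 ± 5.75 FPKM in Max-KO, and the share of Hk2 83.3% ± 0.940 and 91.1% ± 1.04 (SD, n = 3).

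Gpi1, the isomerase that follows hexokinase, moved the other way. It was at 342, 334 and 322 FPKM in WT and at 172, 176 and 185 FPKM in Max-KO, without overlap (−0.90 ± 0.05 SE, limma adjusted p = 1.33e-05). The level of Hk2 was therefore 0.289, 0.288 and 0.308 of that of Gpi1 in WT and 0.809, 0.822 and 0.793 of it in Max-KO. This ratio, like the others given between steps, was chosen after the values were seen and is a description.

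Phosphofructokinase, the main control point of glycolysis, was lower in all its isozymes. Pfkl, the liver type and the most abundant in WT, was at 125, 126 and 137 FPKM in WT and at 46.2, 49.8 and 53.1 FPKM in Max-KO (−1.36 ± 0.07 SE, limma adjusted p = 8.01e-06). Pfkp, the platelet type, fell from 91.4 ± 2.60 to 51.8 ± 7.61 FPKM, and Pfkm, the muscle type, from 15.4 ± 0.606 to 10.7 ± 1.35 FPKM (SD, n = 3). Their shares shifted: Pfkl held 54.8% ± 1.72 of the step in WT and 44.3% ± 1.52 in Max-KO, while Pfkp went from 38.7% to 46.01% and Pfkm from 6.52% to 9.65%. None of these shares overlapped between groups, and in Max-KO Pfkp stood above Pfkl in 2 of 3 libraries.

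The PFKFB enzymes make and degrade fructose-2,6-bisphosphate, the activator of phosphofructokinase, and their sum hid opposite changes. The sum was 22.5 ± 1.49 FPKM in WT and 23.5 ± 0.810 FPKM in Max-KO (SD, n = 3), with overlapping groups. Pfkfb3, the isozyme with the strongest kinase activity, was at 10.2, 9.04 and 8.19 FPKM in WT and at 2.79, 2.89 and 2.42 FPKM in Max-KO (−1.45 ± 0.11 SE, limma adjusted p = 4.40e-05). Pfkfb2, the heart type (ENSMUSG00000026409, chromosome 1, 130689182 to 130729253), was at 3.91, 4.08 and 2.82 FPKM in WT and at 8.36, 8.67 and 8.32 FPKM in Max-KO (1.05 ± 0.13 SE, limma adjusted p = 3.45e-04). Neither gene overlapped between groups.

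The share of Pfkfb3 in the sum was 40.6% ± 2.95 in WT and 11.5% ± 0.671 in Max-KO, and that of Pfkfb2 16.1% ± 3.19 and 35.9% ± 0.795 (SD, n = 3). Pfkfb1, the liver type, was at 8.77, 6.61 and 9.22 FPKM in WT and at 11.1, 10.04 and 9.74 FPKM in Max-KO. The groups were apart, but at 0.31 (95% interval 0.004 to 0.61) the difference was not called (limma adjusted p = 0.0696), though it passed without WT replicate 3 (0.39, limma adjusted p = 0.0408) and after rescaling to TPM (0.51, limma adjusted p = 0.0103). Pfkfb4 was the member with the lowest level, 1.27, 1.53 and 1.76 FPKM in WT and 1.49, 2.60 and 2.15 FPKM in Max-KO. Its groups overlapped, and the difference was 0.28 (95% interval −0.11 to 0.67, limma adjusted p = 0.174). It passed without Max-KO replicate 1 (0.42, limma adjusted p = 0.0455) and was −0.20 under quantile normalization.

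**Figure D2:**
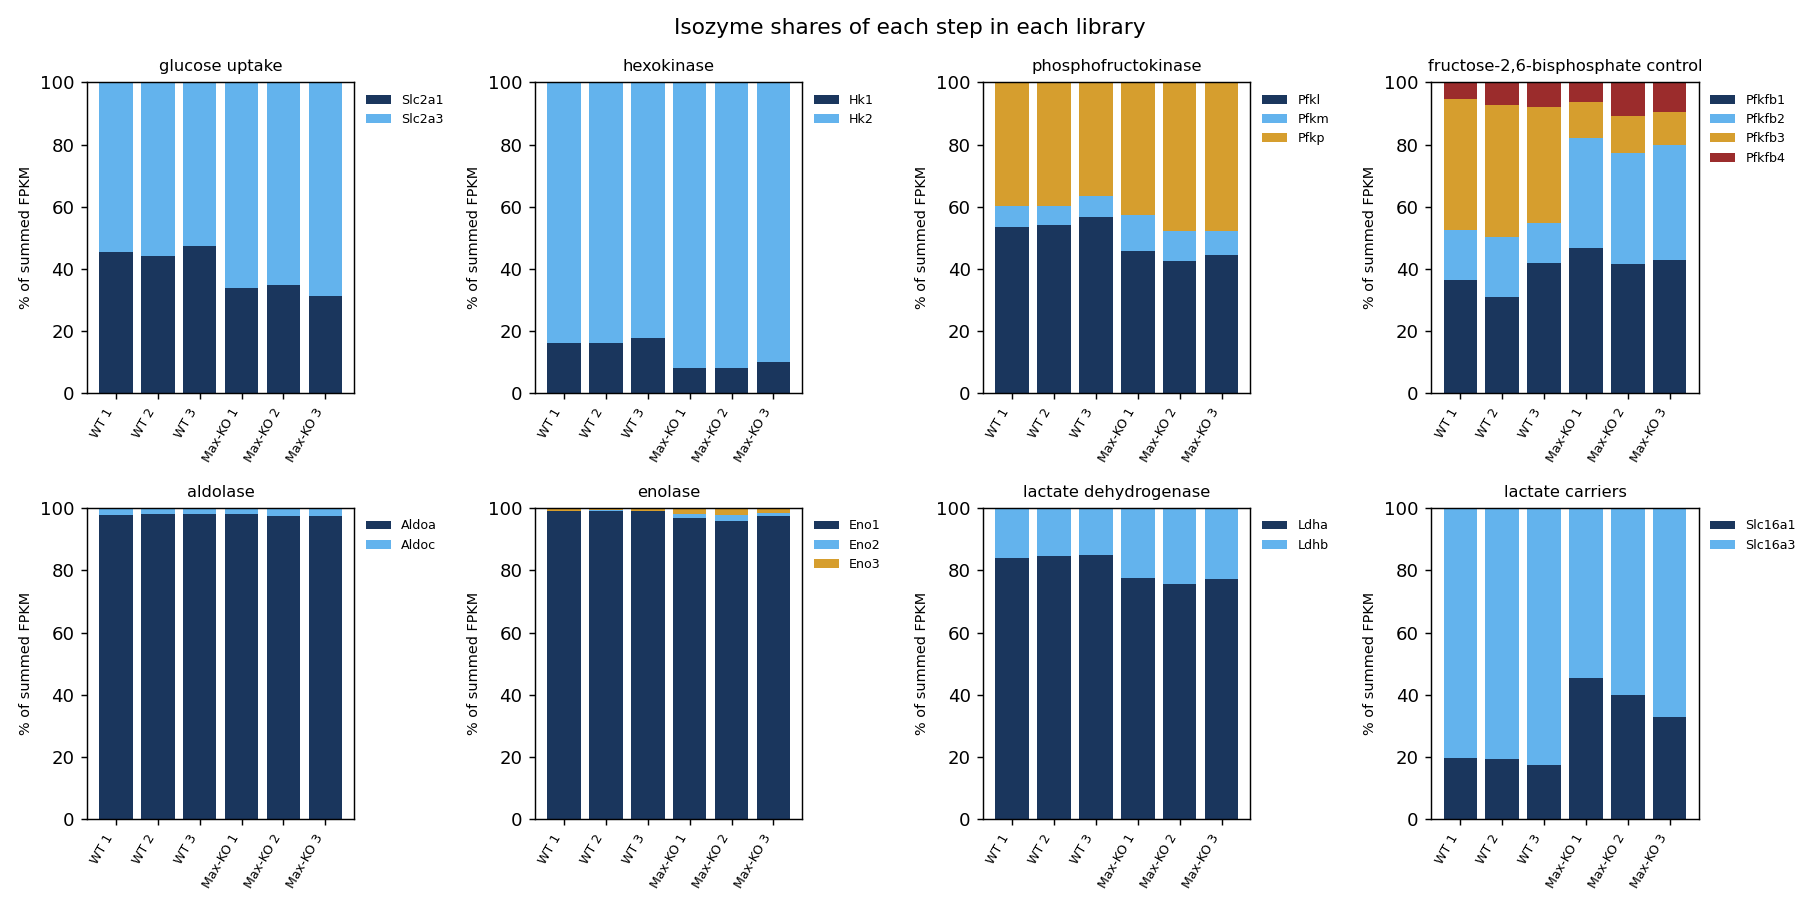
Share of each isozyme in the summed FPKM of its step (vertical axis, percent) in each library, 1 bar per library. The share of Pfkfb3 is 37.2% to 42.5% in WT and 10.7% to 11.9% in Max-KO, and that of Slc16a3 80.4% to 82.6% and 54.8% to 67.1%.

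From aldolase to pyruvate kinase 9 of 10 members fell, 8 of them by 1 or more on the log2 scale, and Eno2 rose. Over all genes tested 23.2% were called lower, 4.86% by 1 or more, and 43.0% higher. Aldoa, the main aldolase, was at 1353, 1343 and 1564 FPKM in WT and at 476, 492 and 527 FPKM in Max-KO (−1.51 ± 0.08 SE, limma adjusted p = 8.96e-06). Aldoc, the brain type, fell from 29.9 ± 2.07 to 12.2 ± 2.05 FPKM (SD, n = 3). The share of Aldoc in the step was 2.07% ± 0.206 in WT and 2.39% ± 0.299 in Max-KO, with overlapping groups. A second identifier that carries the symbol Aldoa, at an adjacent locus that does not overlap it, was listed at 1.14 to 1.77 FPKM. It was not counted as the member.

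Tpi1, which interconverts the triose phosphates, showed the largest fall of the glycolytic enzymes. Tpi1 (ENSMUSG00000023456, chromosome 6, 124810586 to 124814296) was at 346, 349 and 403 FPKM in WT and at 59.5, 73.0 and 79.8 FPKM in Max-KO, 5.17-fold lower by the means (−2.36 ± 0.12 SE, limma adjusted p = 7.52e-06). Tpi1 was at 0.256, 0.260 and 0.258 of the level of Aldoa in WT and at 0.125, 0.148 and 0.151 of it in Max-KO. The ratio of Tpi1 to the enzyme before it was therefore lower in every Max-KO library than in any WT library.

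Gapdh, which makes NADH, was the most abundant member, at 4154, 4158 and 5009 FPKM in WT and at 1936, 1921 and 2145 FPKM in Max-KO (−1.15 ± 0.09 SE, limma adjusted p = 5.29e-05). Its level is uncertain because it shares reads with copies. A search of GENCODE transcripts (at least 90% identity over at least 50% of the copy) found 206 copies of Gapdh, which summed to 2134 FPKM in WT and 972 FPKM in Max-KO, or 32.5% and 32.7% of the total of gene and copies. Of the 16 copies that were tested 11 were lower and 2 higher. One of the 2 was Peli2, a gene that holds such a copy within its transcripts. With copies added the log2 difference of Gapdh was −1.14.

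Pgk1, which makes the first ATP of the pathway, was at 719, 689 and 790 FPKM in WT and at 158, 182 and 207 FPKM in Max-KO, 4.02-fold lower (−2.01 ± 0.10 SE, limma adjusted p = 9.23e-06). Pgam1, the next enzyme, was at 614, 608 and 689 FPKM in WT and at 271, 284 and 260 FPKM in Max-KO (−1.23 ± 0.07 SE, limma adjusted p = 1.13e-05). The processed pseudogene Pgam1-ps2 (chromosome 7, 27469771 to 27470535), identical to Pgam1 over its 765 bases, was listed at 0.38, 0 and 6.56 FPKM in WT and at 18.2, 13.96 and 22.3 FPKM in Max-KO (3.11 ± 0.80 SE, limma adjusted p = 0.0184). It moved opposite to Pgam1. Reads of the pseudogene and of Pgam1 cannot be told apart within that stretch, so its level depends on how they were divided. The part of this division in its rise, and whether the pseudogene itself was transcribed, was not tested. With the 3 copies of Pgam1 added, Pgam1 still fell, by 1.14 on the log2 scale.

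Eno1, the main enolase (ENSMUSG00000063524, chromosome 4, 150236721 to 150248879), was at 1584, 1601 and 1895 FPKM in WT and at 338, 358 and 392 FPKM in Max-KO, 4.67-fold lower by the means (−2.22 ± 0.09 SE, limma adjusted p = 4.11e-06). Eno2, the neuronal type (ENSMUSG00000004267, chromosome 6, 124760053 to 124769673), went the other way from a low level, at 2.71, 2.84 and 2.06 FPKM in WT and 4.11, 7.04 and 4.29 FPKM in Max-KO (0.77 ± 0.20 SE, limma adjusted p = 0.0109). Its call was lost under quantile normalization (0.37, limma adjusted p = 0.141). Neural markers fell in the same libraries, as given above, and their part in this value was not tested. Eno3, the muscle type, fell from 13.5 ± 1.86 to 6.98 ± 1.23 FPKM (SD, n = 3). Eno1 made up 99.1% ± 0.0271 of the step in WT and 96.8% ± 0.801 in Max-KO, so the rise of Eno2 left the step sum 4.56-fold lower, 1709 against 375 FPKM.

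Pkm, whose transcripts encode the M1 and M2 forms of pyruvate kinase that a gene-level value does not separate, was at 2078, 2085 and 2411 FPKM in WT and at 1016, 1054 and 1037 FPKM in Max-KO (−1.08 ± 0.07 SE, limma adjusted p = 2.45e-05). Eno1 stood at 0.762, 0.768 and 0.786 of the level of Pkm in WT and at 0.332, 0.339 and 0.378 of it in Max-KO. The falls along the pathway were thus unequal: Tpi1, Pgk1 and Eno1 were lower by 4.02-fold or more, and Gapdh, Pgam1 and Pkm by 2.12-fold to 2.35-fold.

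**Figure D3:**
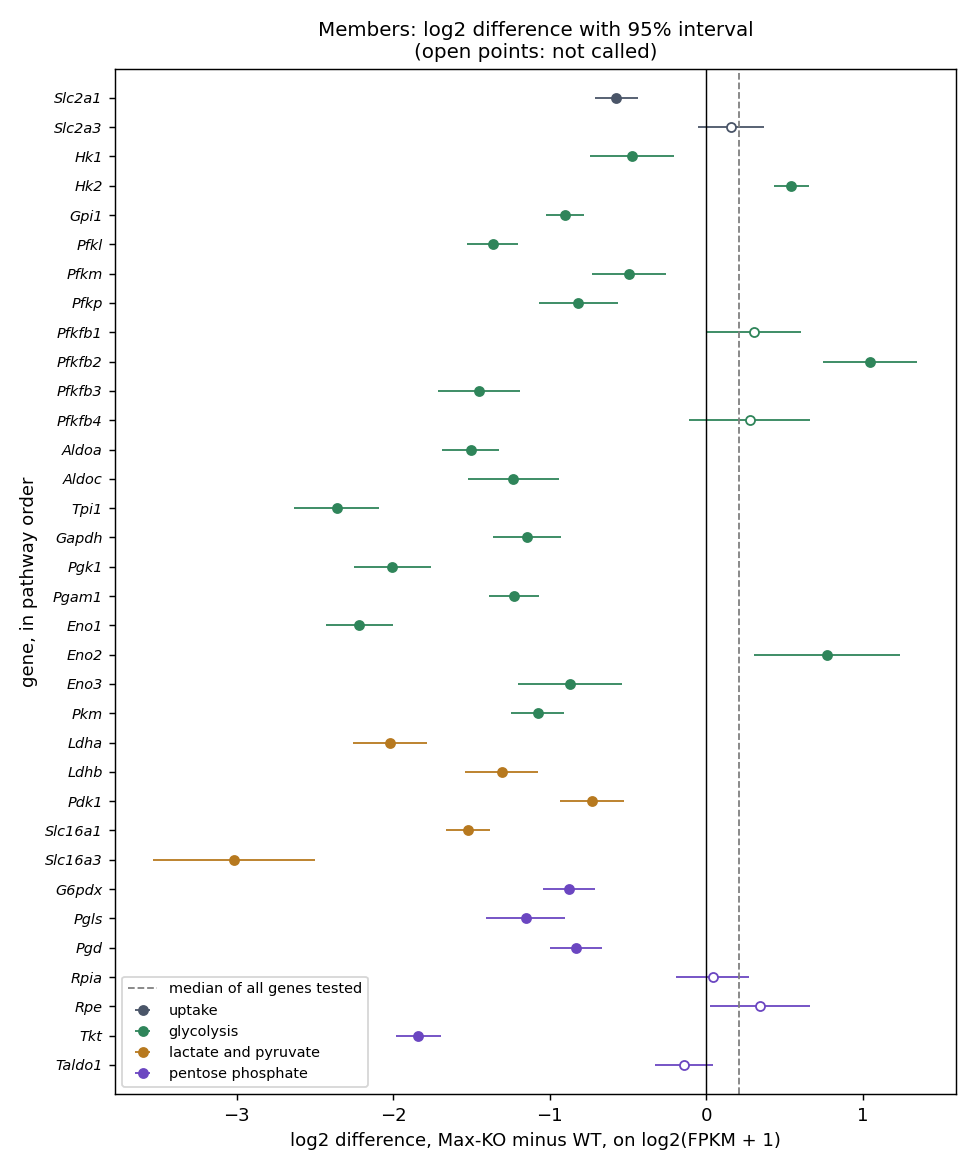
Log2 difference (Max-KO minus WT, horizontal axis) of each gene with its 95% interval, coloured by branch of metabolism, and filled where called; the dashed line is the median of all genes tested (0.21). Slc16a3 lies farthest to the left at −3.02 and Pfkfb2 farthest to the right at 1.05.

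All 5 members that handle pyruvate and lactate fell, against 23.2% of all genes tested. Ldha, the subunit that favours lactate formation (ENSMUSG00000063229, chromosome 7, 46841475 to 46855627), was at 1143, 1144 and 1354 FPKM in WT and at 269, 294 and 332 FPKM in Max-KO, 4.07-fold lower (−2.02 ± 0.10 SE, limma adjusted p = 7.74e-06). Ldhb, the subunit of oxidative tissues, fell from 224 ± 17.4 to 89.9 ± 10.5 FPKM (SD, n = 3). The share of Ldha in the pair was 84.4% ± 0.490 in WT and 76.8% ± 0.966 in Max-KO, without overlap. The 18 copies of Ldha summed to 1.18 FPKM in WT and 1.09 FPKM in Max-KO.

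Slc16a3, which encodes the lactate exporter MCT4, had the largest fall of the members and the 13th largest among the 14661 genes tested. Slc16a3 (ENSMUSG00000025161, chromosome 11, 120948480 to 120960868) was at 197, 206 and 235 FPKM in WT and at 19.04, 23.96 and 35.3 FPKM in Max-KO, 8.14-fold lower (−3.02 ± 0.21 SE, limma adjusted p = 5.77e-05). All Max-KO libraries lay far below all WT libraries, with Max-KO replicate 1 lowest and replicate 3 highest. Slc16a1, which encodes the carrier MCT1, was at 47.9, 48.9 and 49.6 FPKM in WT and at 15.7, 16.02 and 17.3 FPKM in Max-KO (−1.52 ± 0.06 SE, limma adjusted p = 3.93e-06). Slc16a3 held 81.3% ± 1.16 of the pair in WT and 60.6% ± 6.21 in Max-KO. The sum of both carriers was 6.16-fold lower, the largest ratio among the 17 steps.

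Pdk1, which inhibits the pyruvate dehydrogenase complex in mitochondria, was at 49.3, 47.7 and 43.3 FPKM in WT and at 25.3, 27.6 and 30.6 FPKM in Max-KO (−0.73 ± 0.09 SE, limma adjusted p = 3.05e-04). Its groups did not overlap. Pdha1, a subunit of the dehydrogenase it inhibits and not a member, was at 118 ± 0.871 and 98.4 ± 0.976 FPKM (SD, n = 3), so the ratio of Ldha to Pdha1 went from 9.61, 9.74 and 11.4 to 2.76, 2.99 and 3.34. The fall of Pdha1 did not pass after rescaling to TPM (−0.05, limma adjusted p = 0.284).

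The oxidative branch of the pentose phosphate pathway, which makes NADPH, was lower throughout. Its entry enzyme G6pdx was at 45.0, 48.7 and 50.4 FPKM in WT and at 26.0, 24.1 and 27.1 FPKM in Max-KO (−0.88 ± 0.07 SE, limma adjusted p = 5.46e-05). The lactonase Pgls fell from 36.7 ± 4.96 to 15.9 ± 1.08 FPKM (SD, n = 3). Pgd, the second NADPH-making enzyme and the most abundant of the branch, was at 149, 145 and 169 FPKM in WT and at 89.6, 85.7 and 83.1 FPKM in Max-KO (−0.83 ± 0.07 SE, limma adjusted p = 6.95e-05). G6pdx overlaps Ikbkg in the annotation, which rose from 6.91 to 10.4 FPKM, and reads of overlapping genes cannot be told apart where strand is not known. Ikbkg and the copy G6pd2 held 12.6% of the total with G6pdx in WT and 28.8% in Max-KO. With both added the log2 difference of G6pdx was −0.59 ± 0.07 (SE), a smaller fall that was still called.

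The non-oxidative branch, which shuttles carbon between pentoses and glycolysis, split. Tkt, the transketolase (ENSMUSG00000021957, chromosome 14, 30548359 to 30574720), was at 206, 203 and 224 FPKM in WT and at 55.6, 57.9 and 61.2 FPKM in Max-KO, 3.62-fold lower and without overlap (−1.84 ± 0.06 SE, limma adjusted p = 2.42e-06). Taldo1, the transaldolase that works beside it, was at 171, 170 and 195 FPKM in WT and at 148, 168 and 169 FPKM in Max-KO. Its groups were narrowly apart, but at −0.14 (95% interval −0.33 to 0.05) the difference was not called (limma adjusted p = 0.152). Median-ratio scaling brought it past the threshold (−0.40, limma adjusted p = 0.00772), and its sign turned with TPM (0.07) and quantile normalization (0.06). Tkt stood at 1.21, 1.20 and 1.15 times the level of Taldo1 in WT and at 0.375, 0.345 and 0.363 times in Max-KO, a ratio that does not depend on a factor per library.

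The enzymes that interconvert ribulose phosphate were not called. Rpia, the isomerase, was at 6.12, 6.04 and 7.26 FPKM in WT and at 6.81, 6.32 and 6.88 FPKM in Max-KO, with overlapping groups and a difference of 0.04 (95% interval −0.19 to 0.27, limma adjusted p = 0.733). Median-ratio scaling gave −0.18, and quantile normalization −0.30, which passed as lower (limma adjusted p = 0.0472). Rpe, the epimerase, was at 19.0, 18.2 and 13.05 FPKM in WT and at 21.9, 21.6 and 20.3 FPKM in Max-KO, with the groups apart and WT replicate 3 lowest. At 0.34 (95% interval 0.02 to 0.67) the difference was not called (limma adjusted p = 0.0577). Calls came without WT replicate 1 (0.44, limma adjusted p = 0.0356), without WT replicate 3 (0.18, limma adjusted p = 0.0439) and after rescaling to TPM (0.56, limma adjusted p = 0.0138).

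Summed by step, 14 of 17 steps were lower and 1 was higher in Max-KO without overlap, and 2 overlapped, glucose uptake and the PFKFB enzymes. Of all single genes tested, 25.7% were lower and 46.3% higher without overlap, so groups that stand apart were common. With 3 libraries against 3 the exact permutation test cannot go below 0.10, which it reached for these 15 steps (2-sided, adjusted p = 0.113 over 17 steps), so no step passed by this test. Of 20 isozyme shares 16 were apart between groups, 7 lower and 9 higher (exact permutation p = 0.10, adjusted p = 0.125 over the shares). The shares of a step sum to a whole and are not independent of each other. No background was made for shares of other genes.

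**Figure D4:**
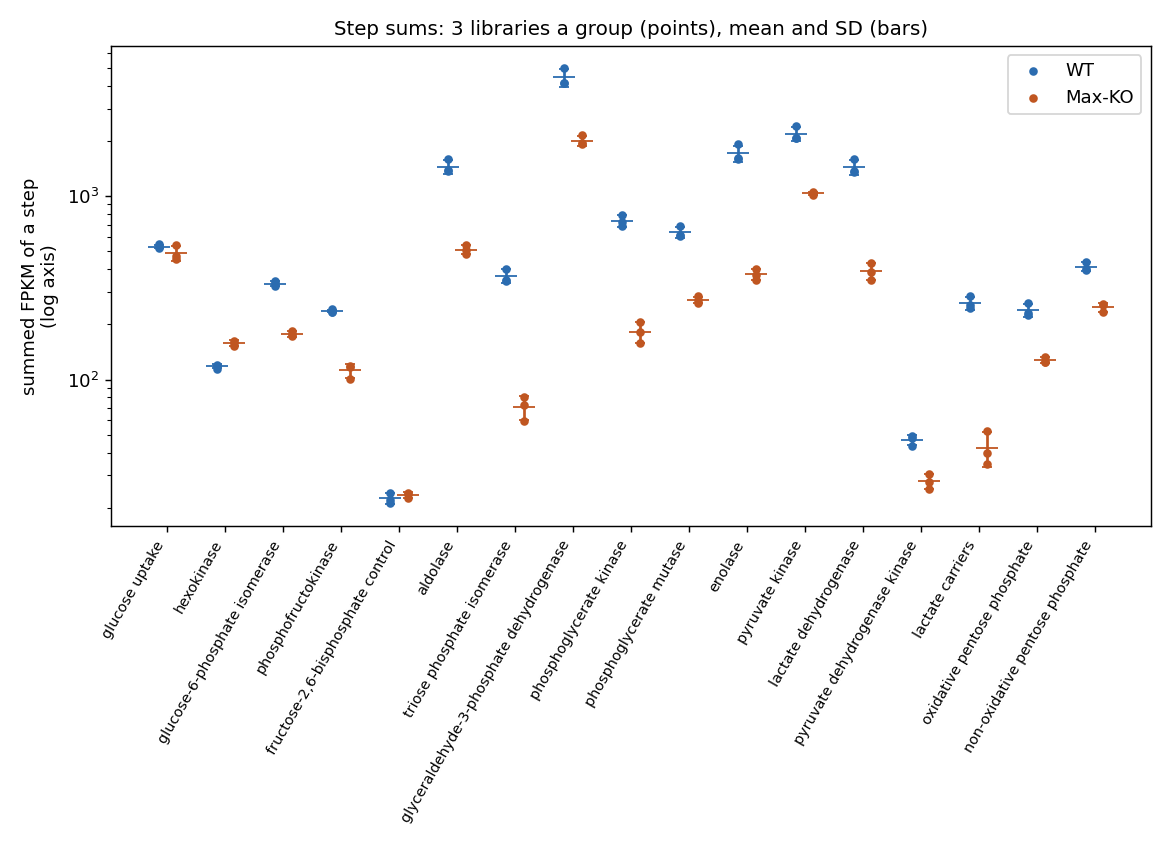
Summed FPKM of the members of each step (log axis), with 1 point per library and the mean ± SD of each group (n = 3). Hexokinase is higher in Max-KO (158 against 118 FPKM), glucose uptake and fructose-2,6-bisphosphate control overlap, and the other 14 steps are lower.

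Other genes around glucose use were taken from 9 lists of 102 genes fixed by pathway. Of the 77 tested 26 were higher, 26 lower and 25 not called, with the shares of all genes as given above (43.0%, 23.2% and 33.8%). This balance moved with the scaling: 33 were higher and 20 lower after rescaling to TPM, 18 and 36 with median-ratio scaling, and 14 and 36 with quantile normalization. Lactate carriers need a glycoprotein partner for their place in the membrane. The partner Emb fell from 41.03 ± 1.24 to 7.48 ± 0.864 FPKM (SD, n = 3, −2.31 ± 0.09 SE, limma adjusted p = 3.57e-06), and Bsg from 369 ± 31.3 to 283 ± 16.2 FPKM (−0.38 ± 0.08), a call lost under quantile normalization (−0.11, limma adjusted p = 0.177). Slc16a3 stood at 0.561 to 0.587 of the level of Bsg in WT and at 0.071 to 0.118 of it in Max-KO.

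In the list of side enzymes of glycolysis 4 of 8 tested genes fell and none rose (median log2 difference −0.32). Over all genes tested 23.2% were lower and 43.0% higher. Khk, the fructokinase, fell from 10.4 ± 1.43 to 2.75 ± 0.116 FPKM, the phosphatase Pgp from 30.2 ± 3.96 to 13.2 ± 1.23 FPKM, and Tigar, which lowers fructose-2,6-bisphosphate, from 23.8 ± 2.59 to 11.5 ± 0.850 FPKM (SD, n = 3). The other gene that fell was Galm. After rescaling to TPM 2 genes of this list were higher. Among glucose transporters beyond the members 2 of 4 tested rose, Slc2a9 and Slc2a4, both under 3 FPKM in every library. Slc2a9 was under 1 FPKM in WT, passed the filter only through Max-KO and did not pass it without Max-KO replicate 3, and neither call held under quantile normalization, where 2 were lower.

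Downstream of the pentose phosphate pathway, ribose phosphate becomes PRPP, the precursor of nucleotides. Prps1, a PRPP synthetase, fell from 74.98 ± 2.98 to 22.1 ± 5.89 FPKM and its regulatory partner Prpsap1 from 132 ± 5.79 to 68.4 ± 1.42 FPKM (SD, n = 3). In that list 3 of 7 genes fell, with Prps2, and 2 rose, H6pd and Rbks (23.2% lower and 43.0% higher over all genes tested). Rbks, the ribokinase, rose from 1.66 ± 0.319 to 2.67 ± 0.179 FPKM, and H6pd from 8.47 ± 0.910 to 11.4 ± 1.61 FPKM. Both calls were lost under median-ratio scaling and quantile normalization, each of which left 0 higher and 4 lower. With 1 library left out 1 to 2 genes were higher and 2 to 4 lower, H6pd losing its call without WT replicate 1 or 2 or Max-KO replicate 1 or 2, and Prps2 without WT replicate 2 or 3.

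In glycogen and hexose side branches 7 of 14 tested genes fell and 3 rose, against 23.2% lower and 43.0% higher over all genes tested. With 1 library left out 4 to 6 fell, 4 without WT replicate 3 or Max-KO replicate 3, where Akr1b3, Gbe1 and Sord lost their calls. After rescaling to TPM 5 were higher and 4 lower. Gpd1l fell from 11.08 ± 1.09 to 3.22 ± 0.260 FPKM, the phosphoglucomutase Pgm1 from 34.6 ± 2.68 to 13.8 ± 0.456 FPKM and the glycogen synthase Gys1 from 25.9 ± 3.12 to 11.5 ± 0.741 FPKM (SD, n = 3). Ugp2, which makes UDP-glucose, rose from 19.3 ± 1.09 to 28.4 ± 1.17 FPKM. Of 4 tested gluconeogenic genes Pck2, the mitochondrial carboxykinase, fell from 17.6 ± 0.886 to 4.12 ± 0.530 FPKM, and Fbp2 rose from 0.457 ± 0.220 to 1.20 ± 0.212 FPKM. Fbp2 passed the filter only through Max-KO, and its call was lost under quantile normalization (−0.03). Median-ratio scaling gave 1 higher and 3 lower in this list, and quantile normalization 0 and 3.

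Genes for the fate of pyruvate in mitochondria went both ways, 6 higher and 5 lower of 14 tested. Among all genes tested 43.0% were higher and 23.2% lower. Pcx, the pyruvate carboxylase, rose from 5.87 ± 0.522 to 12.6 ± 1.09 FPKM and Pdpr, a regulator of pyruvate dehydrogenase phosphatase, from 10.9 ± 0.693 to 21.3 ± 1.24 FPKM (SD, n = 3). Pdp1, a catalytic subunit of that phosphatase, fell from 2.99 ± 0.299 to 1.74 ± 0.354 FPKM. The number higher was 3 to 5 with any 1 library left out. Mpc1 lost its call in 5 of these 6 settings, Pdhx in 4 and Pdk2 in 5. The counts became 7 higher and 3 lower after rescaling to TPM and 2 higher and 7 lower under both other scalings.

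Of 12 germline paralogs of these enzymes 5 were tested, and 4 of these, Tktl1, Tktl2, Eno4 and Ldhal6b, were under 1 FPKM in WT, so that their level in Max-KO alone let them in and no fall could have been seen. Ldhc was the one tested in both groups at 1 FPKM or more, and it rose (1.30 ± 0.24 SE, limma adjusted p = 0.00263). Tktl1, a transketolase-like gene, went from 0.0800 ± 0.0693 to 3.98 ± 0.633 FPKM, Tktl2 from 0.227 ± 0.165 to 2.41 ± 0.0929 FPKM, and Ldhc, the lactate dehydrogenase of sperm, from 2.32 ± 0.835 to 7.15 ± 1.999 FPKM (SD, n = 3). The calls of Eno4 and Ldhal6b were lost under quantile normalization, and that of Ldhal6b without WT replicate 3 (0.63, limma adjusted p = 0.052). The 12 genes summed to 2.85 to 4.70 FPKM in WT and 16.03 to 19.8 FPKM in Max-KO, and Pgk2, G6pd2 and Prps1l1 were listed at 0 in all libraries. Germ cell markers rose in the same libraries, and their part in these values was not tested.

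Of 19 tested regulators linked to glucose use 7 rose and 4 fell, against 43.0% higher and 23.2% lower among all genes tested. Myc rose from 16.9 ± 1.59 to 96.7 ± 4.58 FPKM (SD, n = 3) and Epas1, the hypoxia factor HIF2A, from 23.5 ± 1.37 to 66.01 ± 2.84 FPKM. Egln3, an oxygen-sensing hydroxylase of hypoxia factors, fell from 33.6 ± 1.85 to 5.69 ± 1.66 FPKM (−2.40 ± 0.17 SE, limma adjusted p = 3.60e-05). Under median-ratio scaling the counts were 7 higher and 8 lower.

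**Figure D5:**
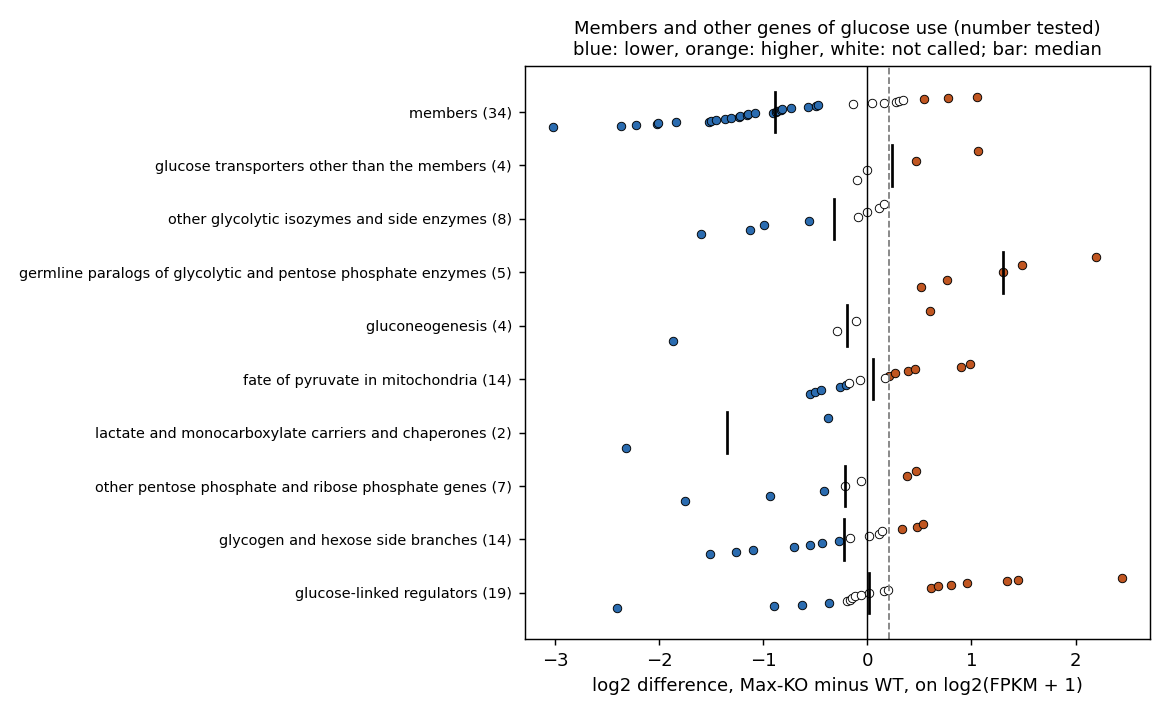
Log2 difference (Max-KO minus WT, horizontal axis) of the 34 members and of the tested genes of 9 other lists, 1 point per gene, coloured by call, with a bar at each median and a dashed line at the median of all genes. The members have a median of −0.89. Of the 5 germline paralogs 4 were tested by virtue of their Max-KO level alone, so their side of 0 was given.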

How the data were processed

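The authors deposited 1 table per library with FPKM per gene and no header. Per the submitters' processing notes, FastQC, HISAT2 2.1.0, RSEM and DESeq 1.26.0 were used with build GRCm38.p6; their roles, and whether the library kit marked strand, are not given in the sources used here. That the deposited values are FPKM was taken from the description of the series and from their sums, which differ between libraries as those of TPM would not. Symbols and coordinates came from GENCODE M21 (GRCm38). The 1153 assembled loci without a gene name, 0.870% to 2.33% of summed FPKM, were left out of the test but kept in library sums.

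A gene entered the test if either group averaged 1 FPKM or more. The test was limma 3.58.1 (R 4.3.3; 2-sided, with trend and robust moderation) on log2(FPKM + 1), with genotype the sole factor and Benjamini-Hochberg adjustment over all genes; a call is an adjusted p under 0.05. Simulated data were used to test the fit, and the rule for passing was revised after a first run. Step sums and shares used exact permutation tests. Copies were found with blastn 2.17.0, and tables were made in Python 3.11.15 with pandas 2.3.3. Depth was estimated from low values of genes with 1 transcript, of which 85.0% to 87.2% fell within 0.15 of a whole multiple of a fitted step; a rule that corrects doubled estimates was added after seeing them, and counts were not rebuilt.

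The members and lists were chosen with earlier results of these data known. The rule gave in full the isozyme of each step with the highest mean over all 6 libraries, members called higher or not called, and the 3 largest falls; Slc2a1, Hk1, Pfkfb3, Slc16a1, G6pdx and Tkt were added after their values were seen. The rule took from each other list up to 3 called genes by size plus 1 in the opposite direction; other genes named where a count was small were picked after their values were seen. Alternatives covered the pseudocount, filters, scalings, moderation, a replicate block, copies and each library left out.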

Additional observations from a re-analysis of the deposited data

How the results depend on the processing

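Under the 15 alternative settings, 488 of 508 values of single members kept their direction and their side of the threshold. 26 of the 28 called members kept their call in every setting in which they were tested; Hk1 and Eno2 lost it in 1 setting each, as given above. Members that were not called turned direction 7 times: Slc2a3 under median-ratio scaling (−0.094), Pfkfb4 under quantile normalization (−0.196), Rpia under median-ratio scaling (−0.181), under quantile normalization (−0.301) and without WT replicate 2 (−0.001, the values with 1 library left out ranging from −0.001 to 0.115), and Taldo1 with TPM (0.072) and quantile normalization (0.059). The number of members called higher, 3, was 6 after rescaling to TPM and ranged from 3 to 5 when 1 library was left out, 5 without WT replicate 3. The number called lower was 24 to 26 in all settings. Step sums that were higher without overlap, 1, were 2 with TPM and with quantile normalization, and 1 to 2 with a library left out, 2 without WT replicate 1. In the other lists 26 genes were called higher, against 14 under quantile normalization and 15 with a mean of at least 5 FPKM over all 6 libraries, where fewer genes were tested and 3970 of all genes were called higher instead of 6300. The cause of the other changes was not tested. Same-numbered libraries showed little shared deviation, with correlations of −0.001, 0.016 and 0.086. The value of replicate 3 was the highest of all pairs, while WT replicates 1 and 2 did not correlate best with their own number. Such correlations cannot show whether the libraries were prepared in pairs. With a replicate block 25 members were called lower and 4 higher, Rpe being added (limma adjusted p = 0.0345), and over all genes 3282 were lower and 6203 higher. With annotated near-identical sequence added, 4 members were higher: Slc2a3 passed (0.22, limma adjusted p = 0.0486) after addition of Snhg14, which shares a short stretch with it. Depth limits Pfkfb4, the lowest member, most.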
